A study of Mus musculus with 9 samples.

Results

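The transcripts described here, detected in Hepa 1-6 cells, encode 9 cytokines and growth factors: Csf1, Csf2, Lif, Il11, Ltb, Tnfsf15, Il33, Il18 and Il15. They are 9 of the 53647 genes in the deposited count table, and all 9 passed the filter on low counts that left 13661 genes for testing. Hepa 1-6 is an established mouse hepatoma line. Poly(A) RNA was sequenced from 9 samples in 3 groups of 3: cells given a control guide, with the genotype listed as Control, Usp5 knockout cells and Ythdf1 knockout cells. USP5 is a deubiquitinase, an enzyme that takes ubiquitin chains off proteins, and YTHDF1 is a reader protein that binds mRNA carrying N6-methyladenosine. The stated purpose was to find immune genes that respond alike to the loss of either protein.

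The Ythdf1 knockout was made with CRISPR/Cas9/EGFP plasmids and the Usp5 knockout with a lentiviral CRISPR vector, so the knockouts differ in their delivery as well as their target. Knockout lines were picked as single-cell clones and checked by immunoblot; whether the control line was cloned, and whether the 3 replicates of a group are separate clones or cultures, is not said. The measured spread is therefore between these samples and may be technical.

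The 9 genes were selected on earlier results of these samples, for the differences described here. Their levels, fold changes and calls are given as a description, with no p-value. The lists of other genes were also chosen with earlier results of these data known. Adjusted p-values printed for genes of those lists are a description too, not independent tests. A call means that edgeR's quasi-likelihood test, adjusted by the Benjamini-Hochberg method over all 13661 genes, gave a value under 0.05. Levels are in CPM, the counts of a gene relative to all counts of its library, on library sizes scaled by TMM, a method that makes the bulk of genes comparable between libraries. In a bulk sample, fewer cells making a transcript and less transcript per cell cannot be told apart.

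Cytokines are secreted or membrane-held proteins through which a cell addresses its neighbours. Csf1 and Csf2 are colony-stimulating factors that keep macrophages alive and drive the growth of myeloid cells. Lif and Il11 signal through the shared receptor subunit gp130 and the JAK-STAT pathway, Ltb and Tnfsf15 belong to the tumour necrosis factor superfamily, and Il33 and Il18 belong to the interleukin-1 family. Il15 sustains natural killer cells and memory CD8+ T cells. Transcription of several of these genes is known to depend on NF-kB, a family of inducible transcription factors whose main inhibitor, IkB alpha, is encoded by one of their own targets.

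Promoter sequence from RefSeq is shown for 5 members. Of these, Ltb and Tnfsf15 were lower in both knockouts. Csf1, Csf2 and Lif were lower in the Usp5 knockout and higher in the Ythdf1 knockout. Il11 moved in the same directions as Csf1, Csf2 and Lif, but its windows are described below and not printed. Each window runs from 250 bases before the annotated transcription start to 50 bases after it, on the gene's strand. The coordinates are those of GRCm38.p6, which is not the build of the deposited counts. Capitals mark matches to GGGNNNNNCC, a simple NF-kB motif, or to TGANTCA, a simple AP-1 motif, on either strand. Matches that overlap are counted separately but run together in capitals, so a window can show fewer stretches than matches.
The Ltb window, chr17:35194257-35194556 on the plus strand, holds 4 matches to the NF-kB motif. Those 40, 39 and 38 bases before the start overlap.
Ltb: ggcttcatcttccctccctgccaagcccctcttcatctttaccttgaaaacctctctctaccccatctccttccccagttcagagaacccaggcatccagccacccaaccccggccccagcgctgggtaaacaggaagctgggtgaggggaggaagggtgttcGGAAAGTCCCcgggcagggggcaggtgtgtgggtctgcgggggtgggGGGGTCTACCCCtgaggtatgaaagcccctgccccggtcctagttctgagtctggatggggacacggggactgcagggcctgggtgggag
The Tnfsf15 window, chr4:63745010-63745309 on the minus strand, holds no match to either motif.
Tnfsf15: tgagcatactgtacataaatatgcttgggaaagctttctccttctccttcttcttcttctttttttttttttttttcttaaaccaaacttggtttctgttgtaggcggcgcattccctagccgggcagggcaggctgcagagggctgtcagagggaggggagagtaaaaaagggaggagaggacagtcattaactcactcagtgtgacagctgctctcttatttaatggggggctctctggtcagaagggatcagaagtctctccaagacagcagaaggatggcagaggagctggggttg
The Csf1 window, chr3:107760420-107760719 on the minus strand, holds 5 matches to the NF-kB motif. Those 155 and 154 bases before the start overlap.
Csf1: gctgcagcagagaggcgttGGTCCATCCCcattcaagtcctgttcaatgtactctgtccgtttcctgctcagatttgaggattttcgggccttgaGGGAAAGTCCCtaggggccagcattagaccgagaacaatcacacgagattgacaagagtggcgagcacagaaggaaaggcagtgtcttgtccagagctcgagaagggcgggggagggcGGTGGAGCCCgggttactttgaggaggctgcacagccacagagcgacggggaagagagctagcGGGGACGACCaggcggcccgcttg
The Csf2 window, chr11:54249850-54250149 on the minus strand, holds 1 match to the NF-kB motif.
Csf2: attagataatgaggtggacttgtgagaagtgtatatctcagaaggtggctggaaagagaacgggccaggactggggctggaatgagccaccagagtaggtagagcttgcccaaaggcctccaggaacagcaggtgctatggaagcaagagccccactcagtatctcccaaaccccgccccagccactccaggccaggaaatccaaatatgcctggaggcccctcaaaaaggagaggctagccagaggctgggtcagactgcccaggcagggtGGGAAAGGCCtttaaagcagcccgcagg
The Lif window, chr11:4257318-4257617 on the plus strand, holds 4 matches to the NF-kB motif and 1 to the AP-1 motif, TGACTCA, 228 bases before the start. The NF-kB matches 178 and 177 bases before the start overlap.
Lif: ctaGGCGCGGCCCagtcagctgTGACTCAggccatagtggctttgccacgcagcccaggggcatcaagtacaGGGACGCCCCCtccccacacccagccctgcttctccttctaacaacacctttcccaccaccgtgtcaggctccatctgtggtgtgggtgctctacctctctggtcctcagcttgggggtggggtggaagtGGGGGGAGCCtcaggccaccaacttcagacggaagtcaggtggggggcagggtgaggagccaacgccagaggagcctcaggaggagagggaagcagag

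The NF-kB motif is loose: 50.8% of 32851 RefSeq mouse windows of 300 bases hold it, and 7.81% hold the AP-1 motif. The Ltb and Csf1 windows share the letters GGAAAGTCCC, 87 bases before the start of Ltb and 154 bases before that of Csf1. That run, singled out after the windows had been read, occurs on either strand in 51 of the 32851 windows (0.155%). Any single fixed run is rarer than the loose motif that includes it. Other runs were not counted for comparison, so the small share is no measure of specificity. Of the other members with a window, Il11 had 2 overlapping NF-kB matches in 1 of its 2 windows and an AP-1 match, TGAGTCA, in the other. Il18 and Il33 had neither motif. RefSeq windows were matched for 8 of the 9 members; Il15 had none. A match in these letters is a description of sequence, not a binding site, and an absent match says nothing about a factor.

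The libraries held 24760877 to 42989715 counts. Usp5 transcript was at 110 to 123 CPM in the Usp5 knockout against 184 to 234 in the control, and Ythdf1 transcript was at 45.7 to 49.9 CPM in the Ythdf1 knockout against 181 to 195. Both targeted genes were thus lower in every knockout library, though neither transcript was lost. Libraries of a group correlated at 0.983 to 0.995 across genes and libraries of different groups at 0.951 to 0.976. Control replicate 3 stood apart from the other controls, with 5.91% of its counts from mitochondrial genes against 2.32% and 2.33%, and the knockout libraries lay between 3.51% and 6.14%. All 10 hepatocyte and hepatoma markers were detected in every group, with summed levels of 4471 to 4733 CPM in the control, 5354 to 5641 in the Usp5 knockout and 6528 to 6574 in the Ythdf1 knockout, although Apoa1 and Ttr lay near 0. The hepatoma marker Gpc3 went against the sum in the Usp5 knockout, at 43.6 ± 2.41 CPM in the control (SD, n = 3), 9.13 ± 0.966 in the Usp5 knockout and 54.1 ± 1.09 in the Ythdf1 knockout. The 8 stellate and fibroblast markers summed to 856 to 1268, 1084 to 1415 and 1062 to 1290 CPM in that order, nearly all of it Dcn (999 ± 232, 1237 ± 166 and 1152 ± 120.4), and Lrat was at 0 counts throughout. The 12 leukocyte markers summed to 13.7 to 16.3, 10.5 to 11.9 and 17.2 to 19.4 CPM in the same order. Of these, the T cell marker Cd3e and the myeloid adaptor Tyrobp were at 0 counts in all 9 libraries. The leukocyte sum was therefore lower in the Usp5 knockout and higher in the Ythdf1 knockout, as were 4 of the cytokines. Only 5 of the 12 markers had enough counts to be tested. Of these, 1 was called lower in the Usp5 knockout and 1 higher in the Ythdf1 knockout, with 4 not called in each comparison. Over all tested genes those shares were 9.8% and 23.7%. The leukocyte marker Ptprc had 14, 7 and 13 counts over the control, Usp5 knockout and Ythdf1 knockout groups. Csf1r, a large part of the sum, was at 6.34 ± 0.631, 5.37 ± 0.915 and 6.26 ± 1.47 CPM in that order. It was not called against control in either knockout. The part of the leukocyte sum in the cytokine values was not tested.

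In the Usp5 knockout, 6 of the 9 transcripts were called lower than control (Csf1, Csf2, Lif, Il11, Ltb and Tnfsf15), 1 was called higher (Il33) and 2 were not called (Il15 and Il18). Over all tested genes 9.8% were called lower and 9.96% higher. In the Ythdf1 knockout, 6 were called higher (Csf1, Csf2, Lif, Il11, Il15 and Il18), 2 were called lower (Ltb and Tnfsf15) and Il33 was not called, where 23.7% of tested genes were called higher and 22.8% lower. The median log2 fold change of the members was -0.98 (Usp5 knockout) and 0.72 (Ythdf1 knockout), against -0.01 and 0.02 over all tested genes. Since the rule that chose the members used these contrasts, nothing is read from the excess. The comparisons with control share their 3 control libraries, so a high or low control moves both.

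Set directly against each other, the Usp5 knockout was called lower than the Ythdf1 knockout for 7 members and higher for 1, with 25.2% and 23.3% of tested genes called in those directions. The exception among the lower ones was Il18, which was not called, and the member that was higher was Il33. The number called in the Ythdf1 knockout depended on single libraries: it was 5 in place of 8 without control replicate 2 and likewise 5 without Ythdf1 knockout replicate 1. In both cases the calls lost were those of Il15, Il18 and Tnfsf15. Calls over all genes in the Ythdf1 knockout fell too, from 6350 to 5244 without control replicate 2 and to 4852 without Ythdf1 knockout replicate 1.

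**Figure D1:**
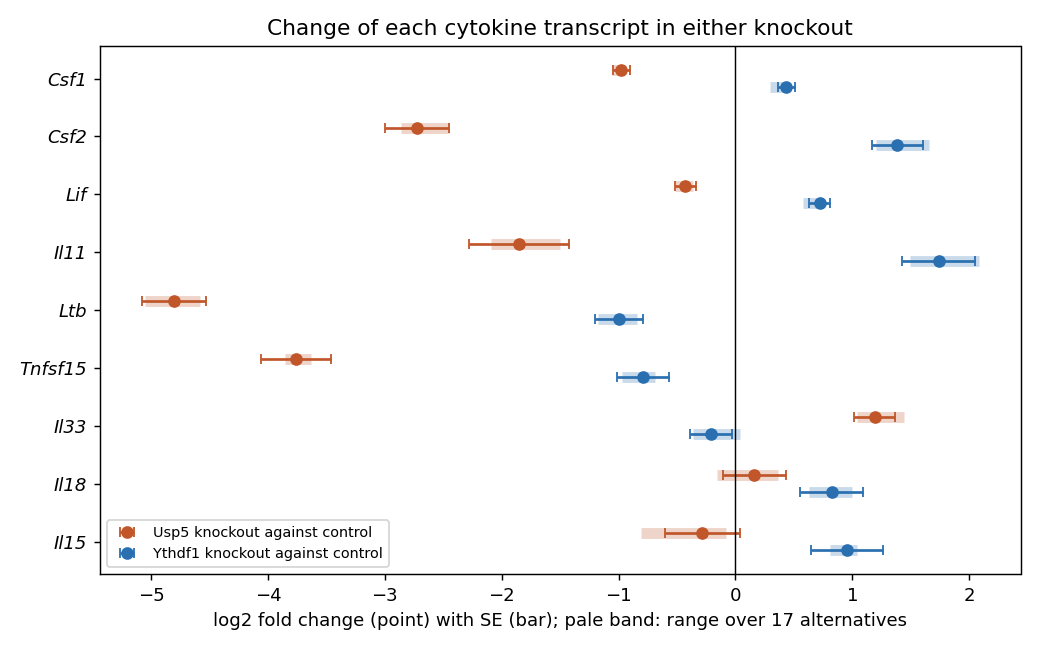
Log2 fold change against control for each cytokine transcript (points, with SE as bars; orange for the Usp5 knockout, blue for the Ythdf1 knockout), with pale bands for the range over 17 alternative analyses. Csf1, Csf2, Lif and Il11 lie left of 0 in the Usp5 knockout and right of 0 in the Ythdf1 knockout; Ltb and Tnfsf15 lie left of 0 in both.

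Csf1, the growth factor that macrophages need to survive, had the highest level per kilobase of any member in the control. Its level in CPM was 180, 173 and 182 CPM in the 3 control libraries, 89.3, 96.7 and 86.5 with Usp5 knocked out and 240, 237 and 247 in the Ythdf1 knockout. No group overlapped another, and the spread inside each group was small beside the distance between them. Csf1 fell by 0.98 ± 0.072 (SE) on the log2 scale with Usp5 knocked out and rose by 0.43 ± 0.071 with Ythdf1 knocked out, so that it stood 2.66-fold lower in the Usp5 than in the Ythdf1 knockout.

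Csf2 encodes GM-CSF, which drives granulocyte and macrophage production. Its counts were low, with 131, 124 and 121 counts in the control, 21, 18 and 12 with Usp5 knocked out and 233, 285 and 210 in the Ythdf1 knockout. These counts correspond to 2.91, 2.88 and 4.87 CPM, 0.493, 0.63 and 0.462 CPM, and 8.62, 10.9 and 7.93 CPM. The groups did not overlap; control replicate 3 was the highest control. Csf2 fell by 2.72 ± 0.28 on the log2 scale when Usp5 was knocked out and rose by 1.39 ± 0.22 when Ythdf1 was, a 17.3-fold distance between the knockouts.

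Lif, leukaemia inhibitory factor, moved in the same directions with smaller steps. The control libraries held 39.2, 38.7 and 35.3 CPM, the Usp5 knockout 30.6, 28.1 and 25.2 and the Ythdf1 knockout 61.5, 60.3 and 64.6. The lowest control was above the highest Usp5 knockout library by a narrow margin, and the Ythdf1 knockout lay well above both. Against control, Lif differed by -0.43 ± 0.090 (Usp5 knockout) and 0.72 ± 0.0895 (Ythdf1 knockout) on the log2 scale.

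Il11, the other gp130 cytokine here, is a factor linked to tissue fibrosis and was close to the detection limit. Its counts were 26, 12 and 10 in the control, 4, 3 and 4 with Usp5 knocked out and 44, 36 and 33 in the Ythdf1 knockout. In CPM that is 0.279 to 0.578, 0.0939 to 0.154 and 1.25 to 1.63, with no overlap between groups. Its log2 fold change with Usp5 knocked out was -1.85 ± 0.43, and its call was lost without control replicate 1 (-1.50) or without Usp5 knockout replicate 1 (-1.69). With Ythdf1 knocked out it was 1.74 ± 0.31 and the call held under each of the 17 alternatives.

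Ltb encodes lymphotoxin beta, the membrane anchor of the lymphotoxin heterotrimer that signals through the lymphotoxin beta receptor. Its counts were 476, 405 and 159 in the control, 10, 12 and 8 with Usp5 knocked out and 136, 107 and 110 in the Ythdf1 knockout. Scaled, these were 10.6, 9.4 and 6.4 CPM, then 0.235, 0.42 and 0.308 CPM, then 5.03, 4.1 and 4.16 CPM. Every knockout library was below every control library, and every Usp5 knockout library was below every Ythdf1 knockout library. Ltb changed by -4.81 ± 0.27 on the log2 scale in the Usp5 knockout, a 28.0-fold lower level and the largest change of any member against control, and by -0.996 ± 0.203 in the Ythdf1 knockout. Control replicate 3 was the lowest control.

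Tnfsf15, also called TL1A, is a ligand of the death-domain receptor DR3 and a co-stimulator of T cells. The counts were low throughout: 67, 84 and 43 in the control, 5, 4 and 3 with Usp5 knocked out and 23, 31 and 25 in the Ythdf1 knockout. The levels were 1.49, 1.95 and 1.73 CPM, 0.117, 0.14 and 0.116 CPM, and 0.851, 1.19 and 0.944 CPM. As for Ltb, the 3 groups were stacked without overlap, with the control highest and the Usp5 knockout lowest. Tnfsf15 fell by 3.76 ± 0.30 on the log2 scale when Usp5 was lost. Its log2 fold change when Ythdf1 was lost was -0.79 ± 0.23, and that call was lost without control replicate 2 (-0.69), Ythdf1 knockout replicate 1 (-0.72) or Ythdf1 knockout replicate 3 (-0.79).

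Il33 is an alarmin, a nuclear cytokine released by damaged cells, and was the only member called higher in the Usp5 knockout. Its level was 16.5, 19.0 and 28.2 CPM in the control, 41.4, 52.5 and 50.8 with Usp5 knocked out and 18.4, 18.3 and 17.9 in the Ythdf1 knockout. The lowest Usp5 knockout library was above the highest control, which was replicate 3, while the Ythdf1 knockout libraries fell inside the control range. Il33 rose by 1.19 ± 0.18 on the log2 scale in the Usp5 knockout. Its difference in the Ythdf1 knockout was -0.21 ± 0.18, not called, and its sign turned without control replicate 3 (0.04).

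Il18, made as a precursor that caspase-1 cleaves, was not called in the Usp5 knockout. The control held 2.29, 1.65 and 2.82 CPM, the Usp5 knockout 1.83, 3.5 and 2.2 and the Ythdf1 knockout 4.4, 3.94 and 3.48, from 57 to 119 counts per library. Control and Usp5 knockout overlapped, and the highest Usp5 knockout library also reached into the Ythdf1 knockout range, whereas control and Ythdf1 knockout did not overlap. The log2 fold change was 0.16 ± 0.27 in the Usp5 knockout, turning negative without control replicate 2 (-0.03) or Usp5 knockout replicate 2 (-0.15), and 0.82 ± 0.27 in the Ythdf1 knockout. That last call was lost without control replicate 1 (0.84), control replicate 2 (0.63), Ythdf1 knockout replicate 1 (0.70) or Ythdf1 knockout replicate 2 (0.79). Against the Ythdf1 knockout, the Usp5 knockout differed by -0.66 ± 0.27, not called, though it was called without control replicate 3 (-0.66) or Usp5 knockout replicate 2 (-0.94). Il18 overlaps Bco2 and Tex12 on the opposite strand, and the sources used here do not give the strand setting of the counting. Those genes together held 41, 41 and 18 counts over the control, Usp5 knockout and Ythdf1 knockout groups.

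Il15 had 36, 40 and 19 counts in the control, 44, 13 and 13 with Usp5 knocked out and 38, 43 and 48 in the Ythdf1 knockout. The levels were 0.8, 0.929 and 0.765 CPM, 1.03, 0.455 and 0.501 CPM, and 1.41, 1.65 and 1.81 CPM. One Usp5 knockout library exceeded all controls and the other two were below them, and all Ythdf1 knockout libraries were above all others. The log2 fold change was -0.28 ± 0.32 in the Usp5 knockout, not called. The value with Ythdf1 knocked out was 0.95 ± 0.31, a call that was lost when any 1 of the 6 libraries compared was left out: control replicate 1 (0.92), 2 (1.04) or 3 (0.90), or Ythdf1 knockout replicate 1 (1.01), 2 (0.91) or 3 (0.84). It was also lost with library sizes alone (0.81).

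**Figure D2:**
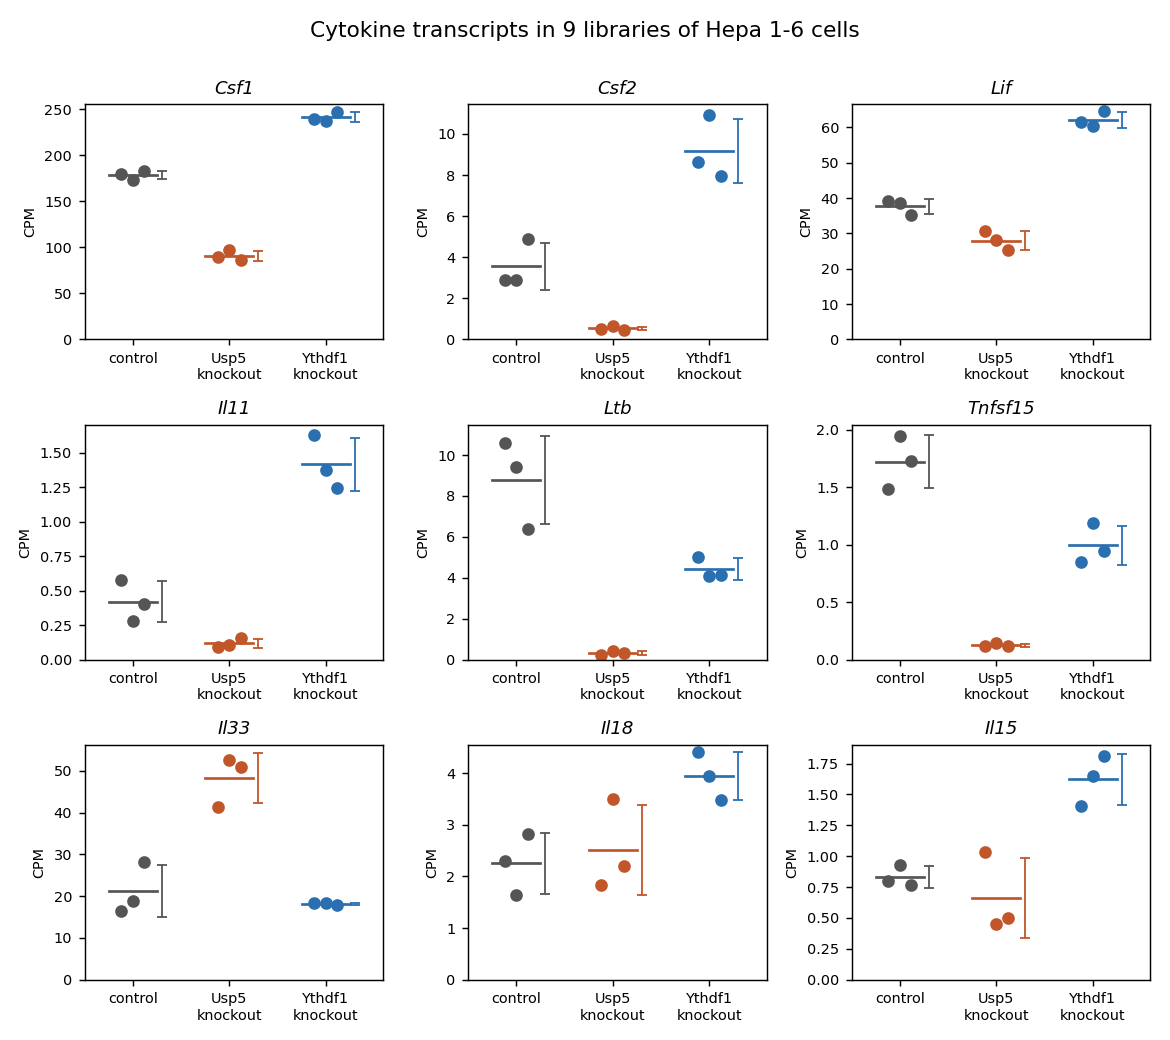
CPM of each cytokine transcript in the 9 libraries, 1 panel per gene with its own axis from 0; points are libraries, horizontal lines are group means and the bars beside them are SD (n = 3). Csf1, Csf2, Lif and Il11 are lowest in the Usp5 knockout and highest in the Ythdf1 knockout, Ltb and Tnfsf15 are highest in the control, and Il33 is highest in the Usp5 knockout.

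Levels were compared between genes per kilobase of the deposited gene length. In the control, Csf1 led at 49.2 ± 1.31 CPM per kb (SD, n = 3), followed by Lif (10.2 ± 0.575), Il33 (8.33 ± 2.43), Ltb (7.53 ± 1.85), Csf2 (4.44 ± 1.43), Il18 (2.61 ± 0.68), Il15 (0.636 ± 0.066), Il11 (0.323 ± 0.116) and Tnfsf15 (0.296 ± 0.0395). The ranges of Lif and Il33, of Il33 and Ltb, of Ltb and Csf2 and of Il11 and Tnfsf15 overlapped, so those neighbours were not ordered beyond their spread. In the Usp5 knockout Ltb had dropped from the fourth place to the seventh, at 0.275 ± 0.0798 CPM per kb, and Il33 had moved to the second, at 19.0 ± 2.36 behind Csf1 at 25 ± 1.46. The Usp5 knockout ranges overlapped for Csf2 and Il15 and for Il15 and Ltb. In the Ythdf1 knockout Csf2, at 11.4 ± 1.95 CPM per kb, came next after Csf1 (66.4 ± 1.43) and Lif (16.7 ± 0.587). There the ranges of Il18 and Ltb and of Il15 and Il11 overlapped.

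The order rests on the length used. With the table's effective length, tried after the data had been seen, Il33 in the Usp5 knockout came to 26.7 CPM per kb and passed Csf1 at 22.3, and Csf2 in the Ythdf1 knockout came to 19.1 and passed Lif at 17. Csf1 remained the highest member in the control and the Ythdf1 knockout with either length.

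Across the 9 libraries, the members that moved alike had correlated log2 CPM: Pearson's r was 0.99 for Csf1 and Csf2, 0.98 for Ltb and Tnfsf15 and 0.95 for Lif and Il11. Csf1, Csf2, Lif and Il11 moved against Ltb and Tnfsf15 in the Ythdf1 knockout but were positively correlated with them as well. There r ran from 0.61 for Lif with Tnfsf15 to 0.87 for Csf1 with Ltb. Il33 was negatively correlated with each of the other 8, from -0.22 with Il18 to -0.92 with Csf1. These coefficients describe 9 libraries in 3 groups and mostly restate the differences between groups.

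Among 10847 genes of at least 1 CPM, the single gene most like each member over the 9 libraries was found in the same way. Rfx5, a subunit of the factor that drives MHC class II transcription, was most like Csf2 (r = 0.998), at 11.7, 6.64 and 15.3 CPM in the control, Usp5 knockout and Ythdf1 knockout. Lhfpl2 was most like Ltb (r = 0.998), at 7.29, 0.483 and 3.72 CPM. Ccl2, a chemokine that attracts monocytes, was most like Tnfsf15 (r = 0.994), at 36.2, 0.0195 and 8.07 CPM. Abtb2 was most like Csf1 (r = 0.995), Tmem86a like Lif (r = 0.994), Pnpla7 like Il11 (r = 0.991) and Zfp532 like Il33 (r = 0.989). The likeness was weaker for Il15 with Hyi (r = 0.963) and for Il18 with Mif4gd (r = 0.953). For most members many genes were nearly as alike. An r over 0.95 was reached by 268 genes for Lif, 137 for Csf1, 122 for Il11 and 109 for Csf2. The numbers were 75 for Ltb, 73 for Tnfsf15, 65 for Il33, 3 for Il15 and 2 for Il18.

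A cell can respond to a cytokine only where it carries the receptor. Of 18 receptor and decoy genes for the 9 cytokines, 11 had enough counts to be tested. In the Usp5 knockout none was called higher and 2 were called lower, with a median log2 fold change of -0.10 against -0.01 over all tested genes, of which 9.96% were called higher and 9.8% lower. In the Ythdf1 knockout 2 were called higher and 4 lower, with a median of -0.15 against 0.02, where the shares of all tested genes were 23.7% and 22.8%. Sigirr, a brake on interleukin-1 family signalling at 88.1 ± 17.5 CPM in the control, was not called in either, but was in both without control replicate 3 (-0.33 and -0.31).

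Il2rb, the signalling chain shared by the receptors of interleukin-15 and interleukin-2, was lower in both knockouts. It stood at 5.44 ± 0.542 CPM in the control (SD, n = 3), 1.53 ± 0.327 in the Usp5 knockout and 2.13 ± 0.26 in the Ythdf1 knockout. Its log2 fold changes were -1.81 ± 0.19 (SE; edgeR, Benjamini-Hochberg adjusted p = 0.000115) and -1.35 ± 0.19 (adjusted p = 0.000286). Il15ra, which presents interleukin-15, was at 3.01 ± 0.0766, 2.79 ± 0.352 and 1.27 ± 0.174 CPM and was called lower in the Ythdf1 knockout, by the edgeR test (log2 fold change -1.24 ± 0.18, Benjamini-Hochberg adjusted p = 0.000347). Il2rg, which completes that receptor, had 6, 4 and 7 counts over the groups and was not tested.

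The gp130 subunit Il6st, used by Lif and Il11, was at 84.0 ± 0.799 CPM in the control, 48.2 ± 3.2 in the Usp5 knockout and 71.5 ± 3.26 in the Ythdf1 knockout. It fell by 0.80 ± 0.075 on the log2 scale in the Usp5 knockout (edgeR, Benjamini-Hochberg adjusted p = 5.44e-05). The log2 fold change in the Ythdf1 knockout was -0.23 ± 0.074 and its call was lost without control replicate 1 (-0.24), control replicate 2 (-0.24) or Ythdf1 knockout replicate 1 (-0.23). Lifr, the ligand-binding partner for Lif, was at 90.1 ± 1.31, 85.3 ± 6.19 and 114 ± 6.04 CPM; its log2 fold change of 0.34 ± 0.076 in the Ythdf1 knockout was called, though not with library sizes alone (0.20). Il11ra1 was at 6.22 ± 1.21, 5.49 ± 0.252 and 7.39 ± 0.477 CPM and was not called against control. Set directly against the Ythdf1 knockout, it was called lower in the Usp5 knockout (-0.43 ± 0.15).

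Ltbr, the receptor for the lymphotoxin heterotrimer, was at 168 ± 9.79 in the control and 169 ± 5.8 CPM in the Usp5 knockout. It rose to 280 ± 16 CPM in the Ythdf1 knockout, a log2 fold change of 0.74 ± 0.078 (edgeR, Benjamini-Hochberg adjusted p = 6.52e-05). Il1rap, the shared accessory chain of the receptors for interleukin-33 and interleukin-1, fell from 2.22 ± 0.0899 to 0.504 ± 0.12 CPM in the Ythdf1 knockout (log2 fold change -2.13 ± 0.24; edgeR, Benjamini-Hochberg adjusted p = 8.65e-05). Its level in the Usp5 knockout, 3.15 ± 0.533 CPM, was not called different from control.

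The Csf1 receptor gene, Csf1r, was at 6.34 ± 0.631, 5.37 ± 0.915 and 6.26 ± 1.47 CPM, with overlapping groups and no call; it also counts among the leukocyte markers above. Il18rap (11.6 ± 0.999, 14.7 ± 1.57 and 10.4 ± 1.26 CPM) and the interleukin-18 decoy Il18bp (1.58 ± 0.0606, 1.98 ± 0.352 and 1.53 ± 0.197 CPM) were not called against control either. Set directly against the Ythdf1 knockout, Il18rap was called higher in the Usp5 knockout (log2 fold change 0.50 ± 0.13). Receptor chains for several members were barely detected. Over the control, Usp5 knockout and Ythdf1 knockout groups, Csf2ra had 1, 1 and 0 counts, Csf2rb 1, 0 and 3, Il18r1 2, 1 and 7, Il1rl1 (the Il33 receptor) 7, 4 and 40, and Tnfrsf25 (the Tnfsf15 receptor) 3, 3 and 1.

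**Figure D3:**
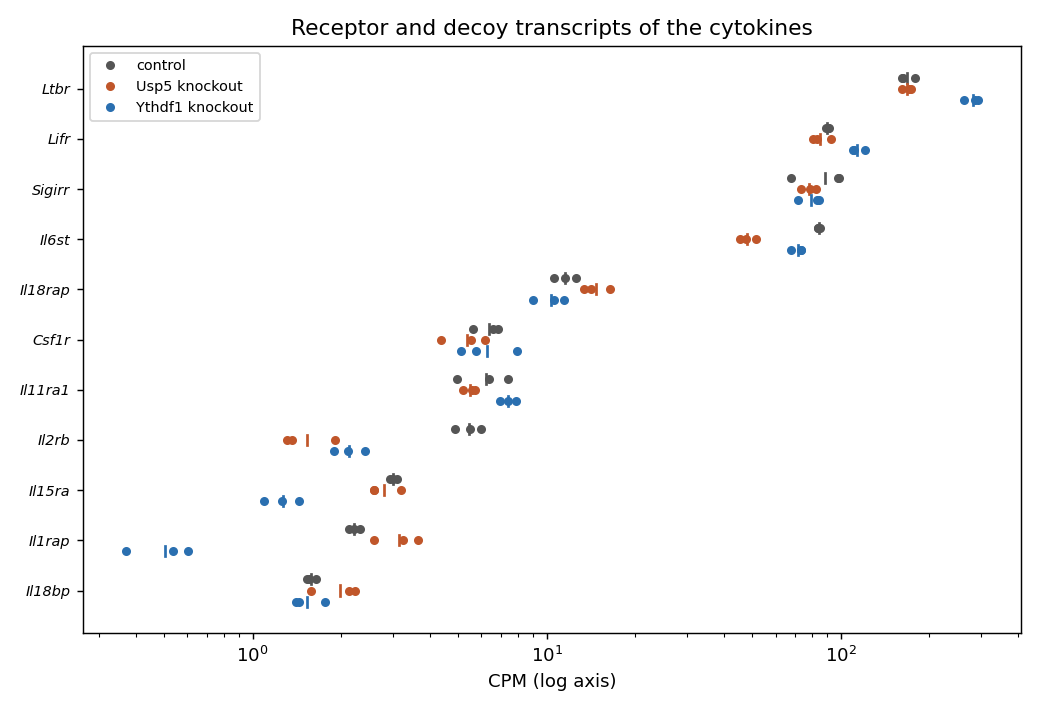
CPM on a log axis of the 11 tested receptor and decoy transcripts in the 9 libraries; points are libraries and ticks are group means (grey control, orange Usp5 knockout, blue Ythdf1 knockout). Il2rb is lower in both knockouts, Il6st is lowest in the Usp5 knockout, Il15ra and Il1rap are lowest in the Ythdf1 knockout, and Ltbr and Lifr are highest there.

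Some of these cytokines are processed by proteases: caspase-1 activates pro-interleukin-18, and several membrane-held ligands are shed from the cell surface. Of 22 genes for maturation and release, 15 were tested. In the Usp5 knockout 1 was called higher and 4 lower (median -0.14), beside 9.96% and 9.8% of all tested genes. The Ythdf1 knockout had 2 higher and 3 lower (median -0.02), beside 23.7% and 22.8%. The inflammatory caspases Casp4 and Casp1 fell by 1.47 ± 0.20 and 0.86 ± 0.18 on the log2 scale in the Usp5 knockout, from 6.42 ± 1.52 to 2.32 ± 0.453 CPM and from 5.32 ± 1.02 to 2.93 ± 0.547 CPM. The membrane protease gene Mmp14 was called higher in both knockouts, at 147 ± 4.14, 208 ± 8.44 and 222 ± 6.36 CPM. The total of 5 calls in the Usp5 knockout became 3 without control replicate 2, without Usp5 knockout replicate 2, or without Ythdf1 knockout replicate 1 or 3.

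The sheddase genes Adam17 and Adam10 fell by 0.64 ± 0.090 and 0.64 ± 0.11 on the log2 scale in the Ythdf1 knockout. Nlrc4, an inflammasome sensor, fell by 0.71 ± 0.10, and Rhbdf2, which escorts ADAM17 to the cell surface, rose by 0.53 ± 0.086. Adam10 was also called lower in the Usp5 knockout (-0.37 ± 0.11), a call that ended without control replicate 2 (-0.40) or 3 (-0.27), Usp5 knockout replicate 1 (-0.30) or 2 (-0.37), or Ythdf1 knockout replicate 1 (-0.37) or 3 (-0.37), and with only the groups compared (-0.38).

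All 43 genes listed for signal transduction and feedback were tested. In the Usp5 knockout 4 were called higher and 16 lower, with a median log2 fold change of -0.20, beside 9.96% and 9.8% of all tested genes and their median of -0.01. Among the Ythdf1 knockout libraries 9 were called higher and 14 lower, with a median of -0.06, beside 23.7% and 22.8% of all tested genes and their median of 0.02. The lowest in the Usp5 knockout were Traf1, an adaptor of tumour necrosis factor receptors, and Nfkbie and Nfkbia, which encode inhibitors that hold NF-kB in the cytoplasm. Traf1 was at 5.11 ± 1.53 CPM in the control and 0.372 ± 0.11 in the Usp5 knockout (log2 fold change -3.76 ± 0.31; edgeR, Benjamini-Hochberg adjusted p = 2.51e-05). Nfkbie fell from 22 ± 1.7 to 5.15 ± 0.351 CPM and Nfkbia from 61.7 ± 8.1 to 25.1 ± 2.27, by 2.09 ± 0.11 and 1.30 ± 0.11 on the log2 scale. Both were also called lower in the Ythdf1 knockout, by smaller steps. There Nfkbie was at 17.6 ± 1.77 CPM (log2 fold change -0.32 ± 0.11) and Nfkbia at 46.2 ± 2.52 CPM (-0.42 ± 0.11).

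The genes called higher in the Usp5 knockout were led by Socs1, a suppressor of cytokine signalling (0.86 ± 0.23), Irak3, a brake on Toll-like and interleukin-1 receptor signalling (0.82 ± 0.18), and the phosphatase gene Ptpn6 (0.46 ± 0.10). The Socs1 call was lost without control replicate 1 (0.91) or 2 (0.75) or Usp5 knockout replicate 1 (0.66) or 2 (0.84), and the Ptpn6 call without control replicate 2 (0.38). For the Ythdf1 knockout the leaders were Cish (1.24 ± 0.14), Irak3 (0.84 ± 0.18) and Traf1 (0.78 ± 0.23), of which the Traf1 call was lost without Ythdf1 knockout replicate 1 (0.71) or 3 (0.65) and with library sizes alone (0.63). Those lowest were Nfkbiz (-1.29 ± 0.14), the kinase gene Jak2 (-1.25 ± 0.12) and Traf3 (-0.93 ± 0.096). Traf3 was also called lower in the Usp5 knockout (-1.02 ± 0.096). Its level was 52.6 ± 6.06 CPM in the control, 25.9 ± 1.23 in the Usp5 knockout and 27.6 ± 0.919 in the Ythdf1 knockout. Jak2 was at 194 ± 17.9 CPM in the control and 81.3 ± 9.48 in the Ythdf1 knockout.

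Transcripts of most other cytokines of these families were not at a testable level. Of 65 listed, 61 were in the table and 17 were tested. In the Usp5 knockout 2 were called higher and 4 lower (median -0.14), beside 9.96% and 9.8% of all tested genes. Calls in the Ythdf1 knockout were 6 higher and 2 lower (median 0.13), beside 23.7% and 22.8%. Tnf, the founder of its family, had 2, 0 and 5 counts over the control, Usp5 knockout and Ythdf1 knockout groups, and Il6 had 2, 1 and 3. Lta, whose product pairs with lymphotoxin beta, had 11, 2 and 21 counts, and Csf3, the colony-stimulating factor of granulocytes, had 33, 3 and 17.

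Il23a, the p19 subunit of interleukin-23, fell from 2.53 ± 0.393 to 0.322 ± 0.117 CPM in the Usp5 knockout (log2 fold change -2.93 ± 0.26; edgeR, Benjamini-Hochberg adjusted p = 3.97e-05) and was at 2.55 ± 0.0902 CPM in the Ythdf1 knockout. Il34, the other ligand of the Csf1 receptor, fell from 3.68 ± 0.508 to 1.37 ± 0.402 CPM in the Usp5 knockout, by 1.41 ± 0.21 on the log2 scale. Il1rn, the interleukin-1 receptor antagonist, went in opposite directions: it was at 21.9 ± 5.9 CPM in the control, 7.3 ± 1.1 in the Usp5 knockout (-1.58 ± 0.19) and 40.3 ± 4.71 in the Ythdf1 knockout (0.89 ± 0.18). Clcf1, a gp130 cytokine named after its values were seen, fell by 0.46 ± 0.076 on the log2 scale in the Usp5 knockout.

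In the Ythdf1 knockout Il17d and Il24 rose by 1.20 ± 0.22 and 1.14 ± 0.16 on the log2 scale, while Tnfsf4 and the stem cell factor gene Kitl fell by 0.75 ± 0.17 and 0.61 ± 0.15. Il24 was also called higher in the Usp5 knockout (0.58 ± 0.16), a call lost without control replicate 1 (0.59) or 2 (0.46), Usp5 knockout replicate 2 (0.52) or 3 (0.55), or Ythdf1 knockout replicate 3 (0.58), and with only the groups compared (0.58). Tnfsf18, another ligand of the tumour necrosis factor family, was tested although scarce. It had 4, 3 and 0 counts in the control libraries, 1, 2 and 0 with Usp5 knocked out and 14, 14 and 12 in the Ythdf1 knockout.

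**Figure D4:**
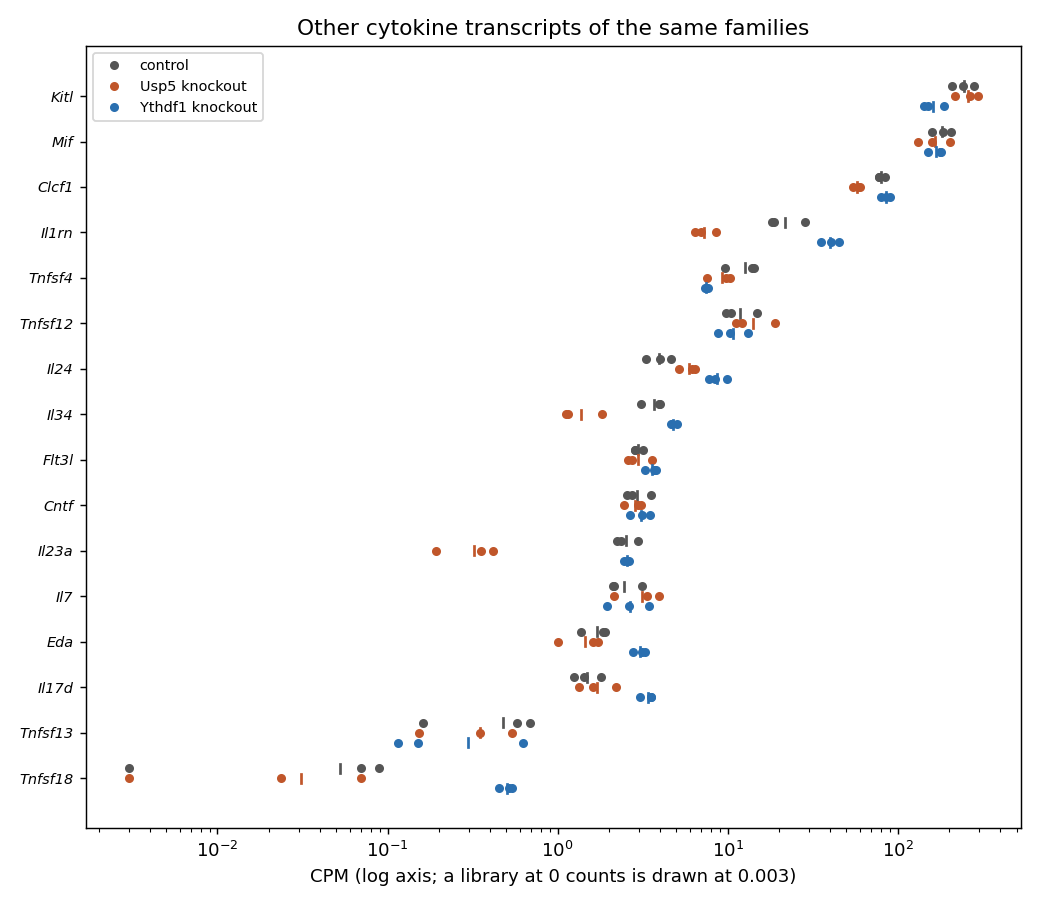
CPM on a log axis of tested cytokine transcripts of the same families, in the 9 libraries; points are libraries, ticks are group means (grey control, orange Usp5 knockout, blue Ythdf1 knockout), and a library with 0 counts is drawn at the left edge. Il23a and Il34 are lowest in the Usp5 knockout, and Il1rn is lowest in the Usp5 knockout and highest in the Ythdf1 knockout.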

How the data were processed

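Poly(A) RNA-seq of 9 samples was used, as a deposited table of estimated counts per gene that the authors had written as whole numbers. Per the submitters' processing notes, fastp 0.23.2, STAR 2.7.10a, Salmon 1.9.0 and GRCm39 were used, with no role or order given; the annotation release and strand setting are not given in the sources used here. Columns were matched to samples by their descriptions and groups were taken from titles.

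Counts were tested in R 4.3.3 with edgeR 4.0.16 (TMM, filterByExpr, glmQLFit and glmQLFTest) in 1 fit over all 9 samples with group as the only term, and adjusted by the Benjamini-Hochberg method over 13661 genes; a call is an adjusted p under 0.05. SE is that of the log2 fold change. The script was tested on simulated data. Alternatives were RLE scaling, library sizes alone, no filter, a stricter filter (1 CPM in 3 samples), only the groups compared, a replicate block, each sample left out, limma-voom (limma 3.58.1) and DESeq2 1.42.0.

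The members, lists, tests and the rule for named genes were chosen with earlier results of these data known. The rule named all members, the tested receptors, and, per other list, comparison and direction, up to 3 called genes with the largest fold change and at least 1 CPM in the higher group. One gene that the rule named is not reported here. The rule also took the 1 most correlated gene per member (log2 CPM, prior count 2). Motifs were searched on both strands of RefSeq windows. More than sampling noise separated all libraries. Depth was 24760877 to 42989715 counts.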

Additional observations from a re-analysis of the deposited data

How the results depend on the processing

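Of the 27 member fold changes (9 genes, 3 comparisons), 20 kept their direction and call under all 17 alternatives. For the others, library by library values stand with each gene above, and leaving out 1 library gave -0.15 to 0.36 for Il18 in the Usp5 knockout and -0.37 to 0.0414 for Il33 in the Ythdf1 knockout. Il18 in the Usp5 knockout set against the Ythdf1 knockout was also called with no filter (-0.62) and with limma-voom (-0.74). The number of members called in the Ythdf1 knockout ranged from 5 to 8 with 1 library left out. Maturation and release genes called in the Usp5 knockout numbered 3 with only the groups compared and 3 to 7 with 1 library left out. Ltbr in the Usp5 knockout turned from 0.01 to -0.0782 with library sizes alone, to -0.0032 with no filter, to -0.001 with only the groups compared and to between -0.0217 and 0.054 with 1 library left out; Csf1r in the Ythdf1 knockout ranged from -0.26 to 0.0687. Library sizes alone moved the median log2 fold change of all genes by -0.08 and -0.14. Over all genes, calls in the Usp5 knockout numbered 2700, and 1756 with only the groups compared, 1736 without control replicate 1, 1494 without control replicate 2, 4371 without control replicate 3 and 1626 without Usp5 knockout replicate 2. Same-numbered libraries deviated together at r of -0.26 to 0.30, and a library correlated best with its own number in 7 of 18 cases, so the numbers were not taken to pair samples. With a replicate block, 7 members were called in each comparison with control, the Il18 call in the Ythdf1 knockout being lost (0.82), and all-gene calls numbered 2346 and 6198 against 2700 and 6350. At counts of 3 to 48 per library, as for Il11, Il15 and Tnfsf15 in the knockouts, counting error alone is large.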

Other observations

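Neighbouring protein-coding genes, from the RefSeq order in GRCm38.p6, were read on either side of each member. Osm, the gp130 cytokine gene beside Lif, had 0 counts in all 9 libraries, and Il3, beside Csf2, had 1 count over the 9. P4ha2, on the other side of Csf2, was at 32.5 ± 3.69 CPM in the control (SD, n = 3), 28.2 ± 1.11 in the Usp5 knockout and 18.3 ± 1.91 in the Ythdf1 knockout. In the same order, Tmem238 beside Il11 was at 31.4 ± 5.36, 34.3 ± 7.67 and 62.4 ± 10.2 CPM. On the sides of Il15, Zfp330 was at 30.9 ± 4.56, 29.3 ± 3.78 and 40.8 ± 3.1 CPM and Inpp4b at 14.4 ± 3.32, 9.35 ± 1.7 and 5.28 ± 0.525. Ahcyl1 beside Csf1 was at 201 ± 5.65, 192 ± 12.6 and 126 ± 2.89 CPM. In the Ythdf1 knockout, where Csf1, Csf2, Il11 and Il15 were higher, the levels of Tmem238 and Zfp330 were thus above control and those of P4ha2, Inpp4b and Ahcyl1 below it. Beside Ltb, Lst1 had 11, 20 and 2 counts and Tnf 2, 0 and 5 over the control, Usp5 knockout and Ythdf1 knockout groups. Tnfsf8, a further tumour necrosis factor family gene beside Tnfsf15, had 0 counts in every library. So had Tex48, on the other side of Tnfsf15, and Fam71e2 beside Il11. Over the same groups Trpd52l3 beside Il33 had 0, 0 and 3 counts, Eps8l3 beside Csf1 42, 15 and 29, and Hormad2 beside Lif 51, 30 and 11. Eps8l3, Hormad2, Pts and Sdhd beside Il18, and Ranbp6 beside Il33 were not called against control in either knockout.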
